A study of Mus musculus with 18 samples.

Results

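Nr4a1, Nr4a2, Nr4a3, Egr1, Egr2, Egr3, Myc and Cd69 are genes that T cells switch on within hours of a signal through the T cell receptor. They were found by gene symbol, through the Ensembl identifiers of the count tables, and all 8 were present among the 52506 genes listed in all 3 tables. All 8 passed the filter on low counts in each comparison. The data are 18 RNA-seq libraries from mouse double negative T (DNT) cells, a T cell type without the CD4 and CD8 co-receptors. Each library came from wild type spleen and lymph node cells that had been converted from CD4+ T cells and stimulated with antibodies to CD3 and CD28. There were 6 groups of 3 libraries in 3 tables, which are called sets here. In set 1, WTATPgs cells had received 400 µM ATPgs, an ATP analogue that resists hydrolysis, for 6 h, and WT cells had received no ligand. In set 2, ADO cells had received 400 µM adenosine and DNT cells none. In set 3, RA cells had received 250 nM of an inhibitor of the adenosine receptor A2aR together with 400 µM adenosine, and R cells the inhibitor alone. The time given was 6 h for all 6 groups. The labels give neither sex nor age nor the origin of replicates, so the p-values below measure the spread between libraries, which may be technical.

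The NR4A proteins (NUR77, NURR1 and NOR1) are orphan nuclear receptors that act as transcription factors without a known hormone, and their amount is set mainly by how strongly their genes are induced. In T cells they are read as a record of antigen receptor signalling and are linked to tolerance and exhaustion. The EGR proteins are zinc finger transcription factors induced by the ERK and NFAT pathways, and EGR2 and EGR3 restrain T cell responses. MYC drives the growth and metabolism of activated T cells, and CD69 is a surface protein that appears early after activation and holds cells in tissue by opposing the egress receptor S1PR1. A2aR raises cyclic AMP, a second messenger that activates CREB family factors, which bind the cyclic AMP response element (CRE), TGACGTCA, or its core TGACG.

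In the mouse genome (GRCm38, GENCODE M21) Nr4a1 (ENSMUSG00000023034) lies on chr15:101254269-101274795, plus strand. Nr4a2 (ENSMUSG00000026826) lies on chr2:57106830-57124003, minus strand, and Nr4a3 (ENSMUSG00000028341) on chr4:48045153-48086447, plus strand. Egr2 (ENSMUSG00000037868) lies on chr10:67535475-67542188 and Egr3 (ENSMUSG00000033730) on chr14:70077203-70082614, both on the plus strand, and Egr1 is ENSMUSG00000038418. Myc (ENSMUSG00000022346) lies on chr15:61985391-61990374, plus strand, and Cd69 (ENSMUSG00000030156) on chr6:129267325-129275436, minus strand. No member overlapped another annotated gene.

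The 250 bases before the start site were read from RefSeq promoters (GRCm38.p6), which held the 3 NR4A genes and Egr2. They are shown because the NR4A genes and Egr2 are the pair whose directions are compared below. Capitals mark the CRE core TGACG on either strand (CGTCA on the opposite strand) and, in Egr2, also the CArG box bound by serum response factor.
Nr4a1: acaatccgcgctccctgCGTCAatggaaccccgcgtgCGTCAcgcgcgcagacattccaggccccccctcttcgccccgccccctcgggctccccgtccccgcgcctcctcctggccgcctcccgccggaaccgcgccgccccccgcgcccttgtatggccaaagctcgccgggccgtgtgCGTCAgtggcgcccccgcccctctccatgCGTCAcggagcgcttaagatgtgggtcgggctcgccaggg
Nr4a2: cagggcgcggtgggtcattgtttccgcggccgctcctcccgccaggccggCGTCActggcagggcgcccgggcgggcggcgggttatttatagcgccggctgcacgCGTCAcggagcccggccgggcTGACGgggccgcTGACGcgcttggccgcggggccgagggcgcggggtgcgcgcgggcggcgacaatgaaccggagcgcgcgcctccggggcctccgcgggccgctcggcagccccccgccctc
Nr4a3: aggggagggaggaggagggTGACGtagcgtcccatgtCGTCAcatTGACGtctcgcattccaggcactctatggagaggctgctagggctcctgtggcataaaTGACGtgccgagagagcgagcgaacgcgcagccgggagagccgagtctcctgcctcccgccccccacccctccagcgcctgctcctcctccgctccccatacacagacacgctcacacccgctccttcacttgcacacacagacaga
Egr2: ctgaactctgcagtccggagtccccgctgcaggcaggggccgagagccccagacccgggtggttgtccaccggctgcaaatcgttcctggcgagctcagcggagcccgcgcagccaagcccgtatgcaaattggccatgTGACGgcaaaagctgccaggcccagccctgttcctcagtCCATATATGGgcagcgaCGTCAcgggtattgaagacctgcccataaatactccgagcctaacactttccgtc
These windows are chr15:101266596-101266845 (plus strand), chr2:57124004-57124253 (minus strand), chr4:48045055-48045304 (plus strand) and chr10:67537619-67537868 (plus strand). The Nr4a1 and Egr2 windows lie inside the gene spans given above, and the Nr4a3 window reaches into its span. For these genes the RefSeq start site is thus not the outer end of the annotated gene. Each NR4A window held 4 CRE cores, a number reached by 45 of 32851 promoter windows of this length (0.137%), whereas at least 1 core was present in 17.8%. The cut of 4 was taken from these same windows, so its share is a description and no test. The Egr2 window held 2 cores, at 111 and 55 bases before the start, on either side of the CArG box, and it is 1 of 5 Egr2 windows in the table. The 2 windows of Egr2 that lie upstream of it, from 67535249 and from 67537316, held no core. None of the 4 windows printed held the full TGACGTCA (1.55% of all promoters), the NR4A monomer site AAAGGTCA (1.34%), the EGR site GCGTGGGCG (0.536%) or the MYC site CACGTG (6.02%), all searched on both strands. The other EGR site, GCGGGGGCG (2.57% of promoters), matched once, in Nr4a1, 60 bases before the start. A short NFAT site, GGAAA (55.6% of promoters), had 1 match in Nr4a2 and 1 in the printed Egr2 window, and 0 in Nr4a1 and Nr4a3. The CArG box was present in 1.47% of promoters. A match describes letters and does not show binding.

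Total counts per library ran from 20156082 to 24331577. The 13 T cell markers were detected in every group and summed to 3454 to 4969 CPM (counts scaled to the total of their library), while Cd4, Cd8a and Cd8b1 together gave 6.38 to 26.7 CPM. The 18 myeloid markers summed to 264.1 and 268.2 CPM in WTATPgs libraries 1 and 2 but 64.08 in WTATPgs library 3, against 60.27 to 63.18 in WT, with no marker at 0 in set 1. The 12 B cell markers split the same libraries, with 90.68, 89.44 and 40.15 CPM in WTATPgs and 49.36 to 50.82 in WT. Elsewhere the myeloid sum was 27.06 to 30.82 in ADO and 17.12 to 18.86 in DNT, and 66.74 to 73.87 in RA and 58.86 to 75 in R, where S100a8, S100a9, Marco and Csf3r were at 0. In bulk RNA, fewer cells of a type cannot be told apart from less RNA per cell. Ribosomal protein genes took 12% to 12.8% of counts in RA and 13.1%, 10.6% and 16.3% in R libraries 1, 2 and 3, against 4.84% to 5.52% in sets 1 and 2. Mitochondrially encoded RNA took 3.49% to 3.73% of counts in RA and 3.48%, 2.98% and 5.2% in R, against 1.54% to 2.03% in sets 1 and 2; of 12 such genes tested, 7 rose and 0 fell with ATPgs (8 and 0 at an unadjusted p under 0.05, 7 and 0 in DESeq2 and in limma-voom), and 0 rose and 6 fell with adenosine (1 and 6, 0 and 6, and 0 and 6). Member and list counts that turn on WTATPgs library 3 or on an R library are also given without it. The part of the myeloid markers and of ribosomal and mitochondrial RNA in the results was not tested.

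**Figure D1:**
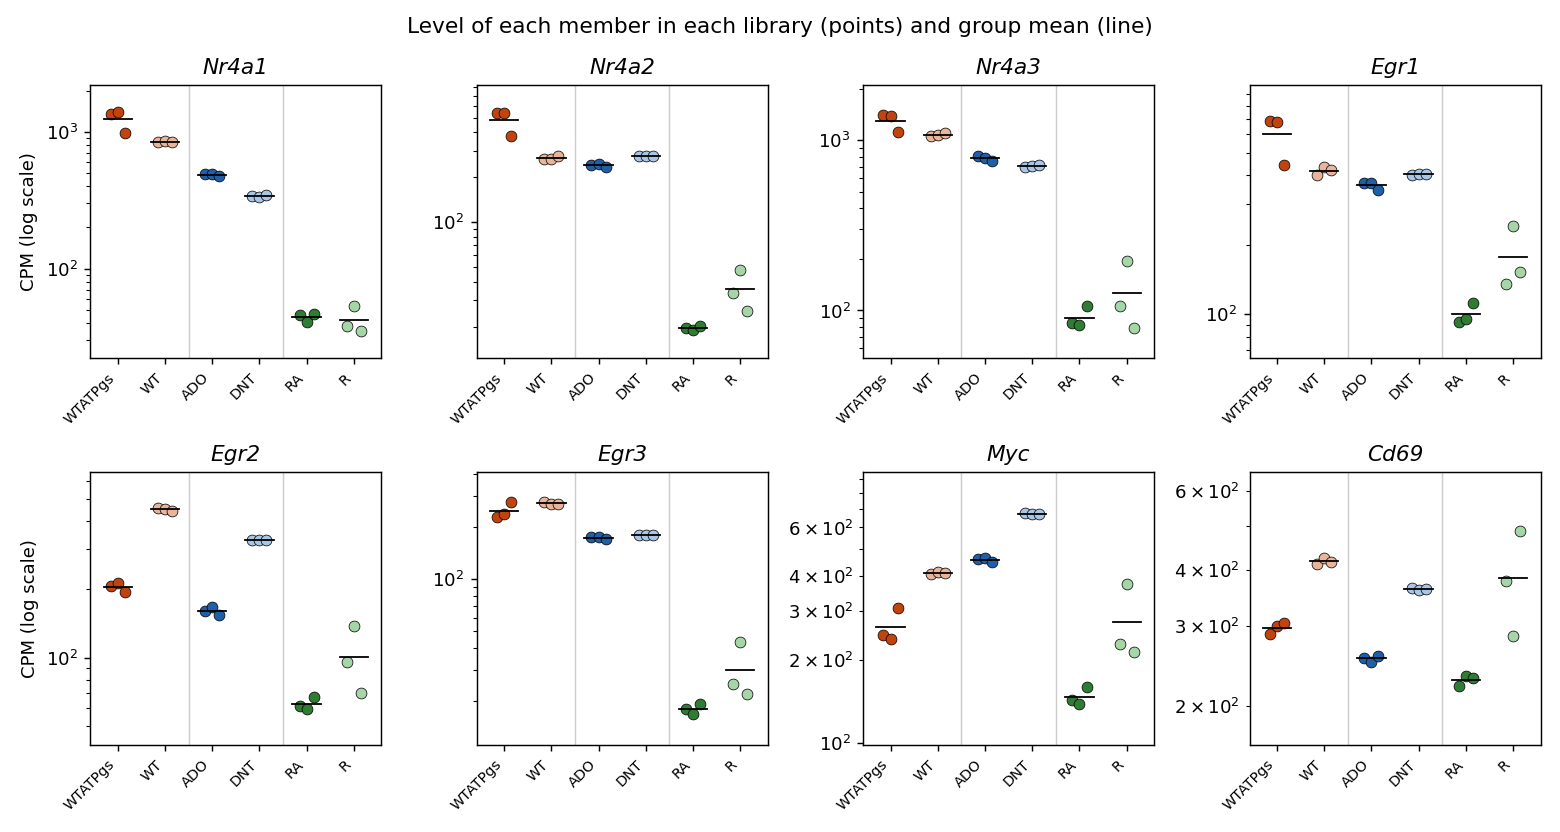
Level of the 8 members in each library, in CPM on a log axis, with a panel per gene whose axis range is its own; points are libraries 1 to 3 of a group from left to right and lines are group means. Vertical lines part the 3 sets, and the points of R lie farther apart than those of ADO, DNT, WT or RA.

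The NR4A and EGR genes ranked higher among protein-coding transcripts in every group of sets 1 and 2 than in either group of set 3, whereas Cd69 did not. Levels between genes are compared here as CPM per kilobase of exon, over 21819 protein-coding genes. Nr4a1 had 356 ± 66.9 CPM per kilobase in WTATPgs and 242 ± 1.75 in WT (SD, n = 3 each), ranks 86 and 147. Myc had 168.9 ± 2.83 in ADO and 248 ± 1.53 in DNT, ranks 196 and 146. Nr4a1 ranked 257 in ADO and 412 in DNT, but 2966 in RA and 3192 in R, and Egr3 ranked 5815 in RA and 4524 in R. In set 3 the member with the best rank was Myc (841 in RA and 479 in R, against 392 in WTATPgs and 255 in WT). Cd69 ranked 1285 in RA and 833 in R, within its range in the other sets, where it ranked 1006 in WTATPgs, 693 in WT, 1291 in ADO and 858 in DNT. Sets were scaled separately, and set and inhibitor cannot be told apart, so levels were not tested between sets.

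The orders below run across sets that were scaled separately. Order and overlap between groups of different sets were not tested and were not compared with a share over all genes. Ordered by mean CPM, Nr4a1 ran WTATPgs, WT, ADO, DNT, RA and R from high to low, and only RA and R overlapped. Nr4a3 ran WTATPgs, WT, ADO, DNT, R and RA, and again only the inhibitor groups overlapped. Nr4a2 ran WTATPgs, DNT, WT, ADO, R and RA with no overlap between neighbours, though DNT (lowest 277.9 CPM) and WT (highest 275.1) were close. Egr1 had the order WTATPgs, WT, DNT, ADO, R and RA, with overlap of WT and DNT. Egr2 had another order, WT, DNT, WTATPgs, ADO, R and RA, without overlap, so that both groups with no ligand and no inhibitor stood above both groups with a ligand. Egr3 ran WT, WTATPgs, DNT, ADO, R and RA, with overlap of WT and WTATPgs. Myc ran DNT, ADO, WT, R, WTATPgs and RA, with overlap of R and WTATPgs, and Cd69 ran WT, R, DNT, WTATPgs, ADO and RA, with R overlapping WT, DNT and WTATPgs.

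The 3 NR4A genes were higher with ATPgs, while Egr2, Myc and Cd69 were lower. At an adjusted p under 0.05, 3 members rose and 3 fell, where 17.7% of the 15124 genes tested rose and 19.4% fell (37.1% in all). DESeq2 called 4 higher and 3 lower, and limma-voom 2 higher and 3 lower. Nr4a1, which encodes NUR77, had 1360, 1408 and 979.8 CPM in WTATPgs against 848.4, 856 and 843.8 in WT. The groups did not overlap, and library 3 lay nearest to WT. The log2 fold change was 0.56 ± 0.14 (SE, n = 3 per group, as for all fold changes; adjusted p = 0.0309). Nr4a2, which encodes NURR1, had 538.8, 536.2 and 378.7 CPM in WTATPgs against 265.1, 263.9 and 275.1 in WT, again with library 3 lowest. It rose by 0.85 ± 0.15 (adjusted p = 0.00711), the largest rise among the members. Nr4a3, which encodes NOR1, had 1412, 1388 and 1128 CPM in WTATPgs against 1065, 1073 and 1102 in WT. Its library 3 stood just above WT, and the rise was 0.28 ± 0.08 (adjusted p = 0.0401).

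Of the EGR genes, Egr2 alone passed under ATPgs in edgeR. Egr2 had 207, 213.4 and 194.3 CPM in WTATPgs against 458.2, 451.6 and 440.7 in WT. All 3 treated libraries were far below every WT library, and Egr2 fell by 1.14 ± 0.04 (adjusted p = 1.08e-06). Egr1 had 684.1, 680.8 and 442.3 CPM in WTATPgs against 399.6, 435.2 and 419.2 in WT. The groups did not overlap, as for 24.5% of genes in this direction and 51.3% in either, but with library 3 close to WT the difference of 0.53 ± 0.19 did not pass (adjusted p = 0.0838). Egr3 had 227.1, 235.9 and 275.7 CPM in WTATPgs against 276, 268.4 and 269 in WT. Library 3 lay within the WT range, and the difference was −0.14 ± 0.07 (adjusted p = 0.153).

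Myc had 245, 237.6 and 306.6 CPM in WTATPgs against 408.2, 413.4 and 410.4 in WT. Every treated library was lower, with library 3 nearest to WT, and Myc fell by 0.64 ± 0.10 (adjusted p = 0.00253). Cd69 had 288, 300.5 and 305.2 CPM in WTATPgs against 412.6, 426.6 and 416.9 in WT. Its treated libraries lay close together, and it fell by 0.49 ± 0.04 (adjusted p = 2.61e-05).

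WTATPgs library 3 set the size of several of these values, as the plot of single libraries shows. Without it all 8 members passed, 4 higher and 4 lower, with 26.9% of genes higher and 26.9% lower. The log2 fold changes were then 0.70 for Nr4a1, 0.998 for Nr4a2, 0.37 for Nr4a3, 0.70 for Egr1 (adjusted p = 7.33e-21) and −0.23 for Egr3 (adjusted p = 7.48e-11). With libraries 1 and 2 left out instead, a choice made after seeing the data in which the lone library is assumed to vary like WT, they were 0.23, 0.53, 0.09, 0.11 and 0.05, the last with an adjusted p of 0.208. Egr2 (−1.11 without library 3 and −1.18 without libraries 1 and 2) and Cd69 (−0.51 and −0.43) moved little, and Myc was at −0.77 and −0.39. Leaving out any single WT library, or WTATPgs library 1 or 2, ended the Nr4a1 call (adjusted p up to 0.0843). The Nr4a3 call was lost in 8 of 15 alternatives (adjusted p up to 0.399).

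**Figure D2:**
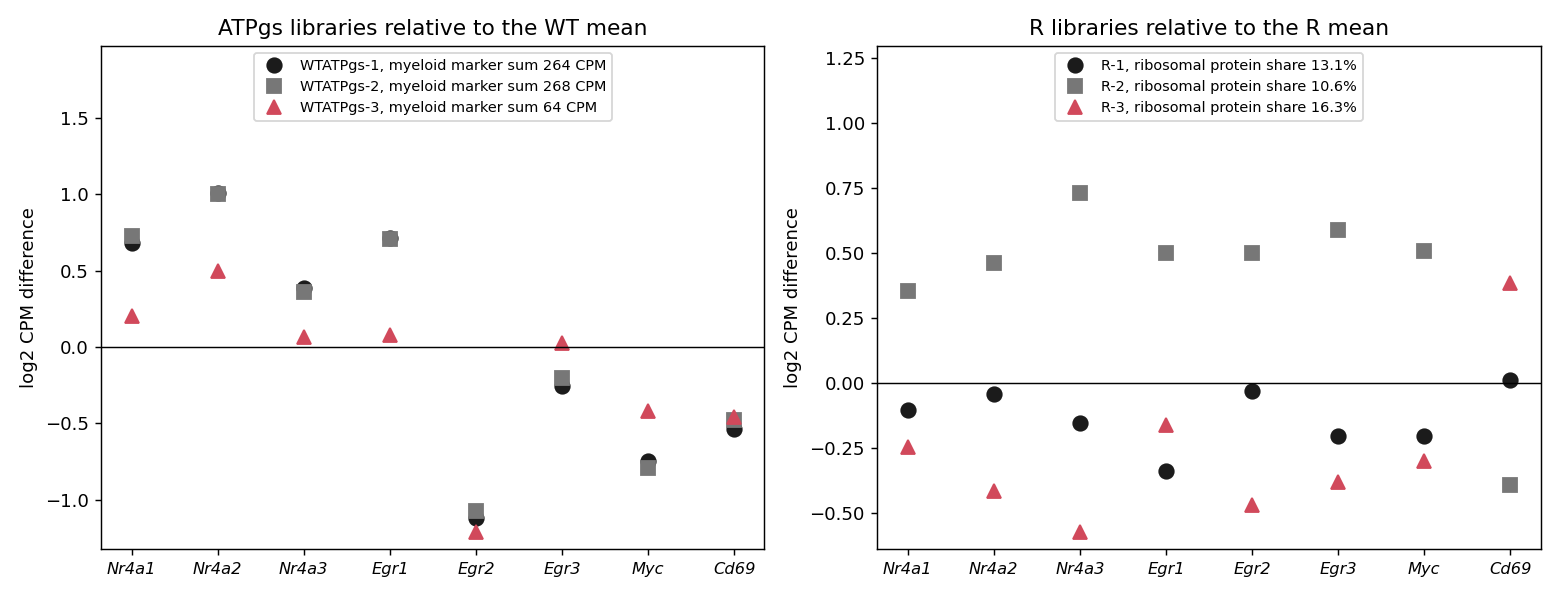
Log2 CPM of each member in the 3 WTATPgs libraries relative to the WT mean (left) and in the 3 R libraries relative to the R mean (right). WTATPgs library 3 (triangles, left) lies nearer to 0 than libraries 1 and 2 for the NR4A genes, Egr1 and Myc but not for Egr2, and R library 2 (squares, right) is highest for 7 members and lowest for Cd69.

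With adenosine, Nr4a1 and Nr4a3 rose while Nr4a2, Egr1, Egr2, Myc and Cd69 fell. That is 2 members higher and 5 lower, where 25.5% of the 14512 genes tested rose and 24.6% fell (50.2% in all), so a call alone says little in this set. The common biological coefficient of variation was 2.74%, against 10.6% in set 1, and small differences passed. Nr4a1 had 490.2, 491.7 and 474.9 CPM in ADO against 340.9, 334.5 and 345.9 in DNT. The groups were well apart, and Nr4a1 rose by 0.51 ± 0.02 (adjusted p = 4.05e-26). Nr4a3 had 812.9, 792.1 and 753 CPM in ADO against 701.8, 702.8 and 721.1 in DNT, a smaller rise of 0.15 ± 0.02 (adjusted p = 3.18e-07). Nr4a2 had 240.5, 243.3 and 235.5 CPM in ADO against 277.9, 278.3 and 278.6 in DNT. It thus went the other way from its 2 relatives and fell by 0.21 ± 0.02 (adjusted p = 5.26e-11).

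Among the EGR genes Egr2 again moved most. It had 161.2, 168.3 and 154.4 CPM in ADO against 329.9, 329.5 and 331.6 in DNT and fell by 1.03 ± 0.03 (adjusted p = 2.5e-35). Egr1 had 369.2, 368.7 and 345.5 CPM in ADO against 399.9, 404.9 and 406 in DNT. Its groups did not overlap, and it fell by 0.16 ± 0.02 (adjusted p = 4.35e-08). Egr3 had 173.8, 173.3 and 169.8 CPM in ADO against 179.1, 179.9 and 178.5 in DNT. This difference of −0.06 ± 0.03 did not pass (adjusted p = 0.0703), although every ADO library was below every DNT library, as was so for 27.5% of genes, with 28.2% apart in the other direction and 55.7% in either.

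Myc had 462.2, 464.5 and 450.2 CPM in ADO against 677.9, 671.6 and 670.1 in DNT and fell by 0.55 ± 0.02 (adjusted p = 3.98e-29). Cd69 had 255.7, 250.6 and 257.7 CPM in ADO against 365, 361.9 and 362.9 in DNT and fell by 0.51 ± 0.02 (adjusted p = 2.59e-25). Both groups were tight for both genes and lay far apart. When all 18 libraries shared a dispersion estimate, the changes of Nr4a2 (adjusted p = 0.403), Nr4a3 (0.685) and Egr1 (0.629) no longer passed, while those of Nr4a1, Egr2, Myc and Cd69 did.

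**Figure D3:**
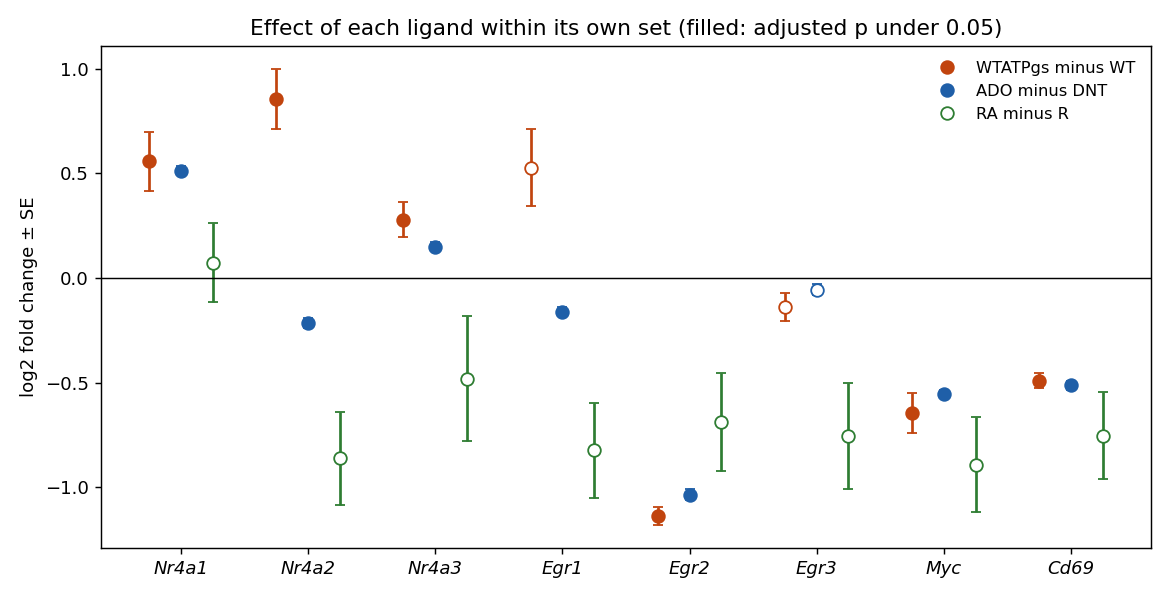
Log2 fold change with SE (n = 3 libraries per group) of each member for ATPgs (WTATPgs minus WT), adenosine (ADO minus DNT) and adenosine with the inhibitor present (RA minus R). Filled points have an adjusted p under 0.05; Egr2, Myc and Cd69 lie below 0 in all 3 comparisons and the RA minus R points are all open.

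With the A2aR inhibitor present, none of the 8 members passed with edgeR when adenosine was added, where 1.14% of the 12873 genes tested did (0.287% higher and 0.855% lower). At an unadjusted p under 0.05 there were 6 members, all lower, and DESeq2 called 4 and limma-voom 0. The set had a biological coefficient of variation of 19.6%, and the spread lay mostly in R. Nr4a1 had 45.44, 40.6 and 46.63 CPM in RA against 38.35, 52.9 and 34.71 in R. The groups overlapped, with a difference of 0.07 ± 0.19 (adjusted p = 0.939). Nr4a3 also overlapped, with 84.01, 82.17 and 106 CPM in RA against 105.5, 195.1 and 78.8 in R (−0.48 ± 0.30, adjusted p = 0.604). Nr4a2 had 19.42, 18.91 and 20.26 CPM in RA against 33.29, 47.47 and 25.56 in R, without overlap (−0.86 ± 0.22, adjusted p = 0.119).

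For each of the 6 members other than Nr4a1 and Nr4a3, every RA library was below every R library, as was so for 10.7% of genes, with 10.1% apart in the other direction and 20.8% in either. Egr1 had 92.8, 95.4 and 111.4 CPM in RA against 135.2, 242 and 152.8 in R (−0.82 ± 0.23, adjusted p = 0.145). Egr2 had 61.68, 59.68 and 67.24 CPM in RA against 95.51, 138.1 and 70.24 in R (−0.69 ± 0.23, adjusted p = 0.242). Its lowest R library was close to RA. Egr3 had 17.83, 16.72 and 19.06 CPM in RA against 24.82, 43.41 and 21.9 in R (−0.75 ± 0.25, adjusted p = 0.238). Myc had 143.4, 138.8 and 159.3 CPM in RA against 228.8, 375.4 and 214.1 in R (−0.89 ± 0.23, adjusted p = 0.111). Cd69 had 221.4, 232.4 and 230.5 CPM in RA against 378.5, 285.4 and 489.2 in R (−0.75 ± 0.21, adjusted p = 0.145).

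R library 2 was highest for 7 members and lowest for Cd69, and it also had the smallest share of ribosomal protein RNA in R. Without it Cd69 alone passed (−0.94, adjusted p = 0.0259), where 0.543% of genes were higher and 1.14% lower. Without R library 3 there were 7 members that passed, all lower, where 5.5% of genes were higher and 7.54% lower. The members' calls in set 3 thus turned on which R library was kept.

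Whether the effect of adenosine differed with the inhibitor was tested as the change in RA against R minus the change in ADO against DNT. No member passed with edgeR, where 4.06% of the 14918 genes tested did (0.912% higher and 3.14% lower). At an unadjusted p under 0.05 there were 4 members, all lower, DESeq2 called 1 and limma-voom 0. For Nr4a1 the difference was −0.45 ± 0.18 (adjusted p = 0.191) and for Egr2 it was 0.34 ± 0.23 (adjusted p = 0.518). Myc stood at −0.35 ± 0.23 (adjusted p = 0.496) and Cd69 at −0.27 ± 0.24 (adjusted p = 0.638). With SEs of this size the test does not show that the effects were alike, and set and inhibitor cannot be told apart in it.

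ATPgs and adenosine were compared as the ATPgs change minus the adenosine change, and 2 members differed, both higher, where 8.13% of the 15788 genes tested were higher and 9.12% lower (17.3% in all). ATPgs was given only in set 1 and adenosine only in set 2, so ligand and set cannot be told apart here. The joint fit had a biological coefficient of variation of 7.44%, against 10.6% in set 1 and 2.74% in set 2. Nr4a2 differed by 1.07 ± 0.15 (adjusted p = 0.00152), since it rose with ATPgs and fell with adenosine, and without WTATPgs libraries 1 and 2 it still differed by 0.73. Egr1 differed by 0.69 ± 0.20 (adjusted p = 0.0437) but lost the call in 16 of 22 alternatives (adjusted p up to 0.188). The other 6 members had differences from −0.10 ± 0.05 for Egr2 to 0.13 ± 0.09 for Nr4a3, with adjusted p values from 0.216 to 0.878. With WTATPgs libraries 1 and 2 left out, Nr4a1 differed by −0.29 (adjusted p = 1.02e-10), against 0.05 ± 0.15 with all libraries, and 5 members passed, 3 higher and 2 lower, where 11.3% of genes were higher and 11.3% lower.

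The summed NR4A level was higher relative to the summed EGR level with the ligand than without it in each set. The sums themselves moved differently. NR4A was 3311, 3333 and 2487 CPM in WTATPgs against 2179 to 2221 in WT. EGR was 1118, 1130 and 912.4 against 1129 to 1155. In ADO, NR4A was 1463 to 1544 against 1316 to 1346 in DNT, and EGR 669.7 to 710.3 against 908.9 to 916.1. In RA, NR4A was 141.7 to 172.9, within the 139.1 to 295.5 of R. EGR was 171.8 to 197.7 in RA against 244.9 to 423.6 in R. The log2 ratio of summed NR4A to summed EGR CPM was 1.57, 1.56 and 1.45 in WTATPgs against 0.942, 0.925 and 0.976 in WT. It was 1.13, 1.1 and 1.13 in ADO against 0.539, 0.525 and 0.555 in DNT. In set 3 it was −0.211, −0.278 and −0.194 in RA against −0.529, −0.52 and −0.817 in R. The groups did not overlap in any set, and EGR exceeded NR4A RNA in set 3 only. The difference of group means was 0.577, 0.582 and 0.394 in sets 1, 2 and 3, and leaving out single libraries gave 0.556 to 0.615, 0.575 to 0.59 and 0.297 to 0.445. These ratios are a description of 6 chosen genes and carry no test.

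**Figure D4:**
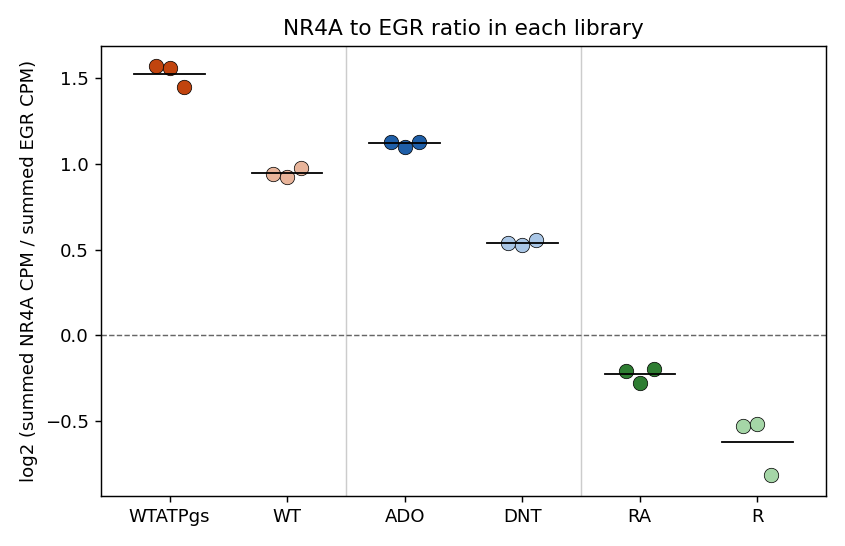
Log2 ratio of summed Nr4a1, Nr4a2 and Nr4a3 CPM to summed Egr1, Egr2 and Egr3 CPM in each library (points) with the group mean (line); the dashed line marks equal sums. In each set the ligand group lies above its partner, and RA and R lie below 0.

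The ratio did not move alike for every pair of genes. For Nr4a1 over Egr2 the difference of group means in log2 ratio was 1.67 with ATPgs, 1.55 with adenosine and 0.731 with adenosine and inhibitor. For Nr4a1 over Egr1 it was 0.0386, with overlapping groups, then 0.673 and 0.877. For Nr4a2 over Egr3 it was 0.98 with ATPgs but −0.158 with adenosine and −0.129, with overlap, in the presence of inhibitor. For Nr4a3 over Egr2 it was 1.41, 1.18 and 0.252, the last with overlap, but for Nr4a3 over Egr1 it was −0.229, with overlap, with ATPgs and 0.31 with adenosine. All 3 NR4A genes were higher relative to Egr2 under both ligands without inhibitor, with Nr4a2 over Egr2 at 1.97 and 0.82. With adenosine and inhibitor Nr4a2 over Egr2 went the other way, at −0.179 without overlap. Relative to Egr1 and Egr3 the sign or the overlap depended on the NR4A gene and the ligand, and Egr3 itself passed under neither ligand.

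Genes near the members in the pathway were taken from 7 lists and are given by count. The lists were put together with results of these data known, so they are no independent evidence. Over all genes tested, 17.7% rose and 19.4% fell with ATPgs, 25.5% and 24.6% with adenosine, and 0.287% and 0.855% with adenosine and inhibitor, and each list's counts stand against these shares. Of 30 MYC targets, 25 fell and 0 rose with ATPgs (median log2 fold change −0.56, against −0.000615 for all genes), with 28 lower and 0 higher at an unadjusted p under 0.05, 27 and 0 in DESeq2 and 27 and 0 in limma-voom. Ccnd2, the cell cycle gene cyclin D2, fell by 0.72 ± 0.03 (adjusted p = 1.42e-06), and Gnl3, the nucleolar GTPase nucleostemin, fell by 0.67 ± 0.04 (adjusted p = 7.63e-06). Without WTATPgs library 3 the ATPgs count was 28 lower and 0 higher, and without libraries 1 and 2 it was 25 and 2. With adenosine 28 MYC targets fell and 1 rose (median −0.35), among them Ccnd2 (−0.67 ± 0.02) and the nucleolar chaperone gene Npm1 (−0.48 ± 0.02). The exception was the glycolytic gene Ldha (0.04 ± 0.02, adjusted p = 0.0151). With the inhibitor none of the 30 passed when adenosine was added (median −0.23), where 3 had an unadjusted p under 0.05, all lower, and DESeq2 called 1 and limma-voom 0. Without R library 3, 5 of the 30 were lower. The ATPgs change of MYC targets was lower than the adenosine change for 13 of 30 and higher for 0. Over all genes tested there, 9.12% were lower and 8.13% higher. The count was 17 lower and 1 higher at an unadjusted p under 0.05, 13 and 1 in DESeq2 and 13 and 0 in limma-voom. Without WTATPgs libraries 1 and 2 it was 11 lower and 3 higher.

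Among 23 tested partners of the NR4A, EGR and MYC proteins, 9 rose and 9 fell with ATPgs, and 4 rose and 13 fell with adenosine. Mxi1 and Mxd4, which encode MAX partners that oppose MYC, rose by 1.33 ± 0.12 and 0.58 ± 0.08 with ATPgs and by 1.12 ± 0.11 and 0.73 ± 0.07 with adenosine. Mycn, the close relative of Myc, fell by 0.60 ± 0.07 with ATPgs and by 1.28 ± 0.04 with adenosine. Fbxw7, also on this list, changed by −0.43 ± 0.05 with ATPgs. Nab2, a corepressor that binds EGR proteins, fell by 0.56 ± 0.05 with adenosine. With the inhibitor 0 of 23 passed in edgeR, while 5 had an unadjusted p under 0.05, all lower, and DESeq2 called 3 and limma-voom 0. Without R library 3, 6 of 23 were lower. The 9 that rose with ATPgs were 5, 6 and 6 without WT library 1, WT library 3 or WTATPgs library 1.

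Of 25 other immediate early genes, 17 rose and 2 fell with ATPgs (median 0.52), and 11 rose and 5 fell with adenosine (median 0.10). The ATPgs count was 20 higher and 3 lower without WTATPgs library 3, and 18 and 5 without libraries 1 and 2. Klf10, a zinc finger repressor gene, rose by 1.69 ± 0.09 with ATPgs and by 0.55 ± 0.05 with adenosine, and the phosphatase gene Dusp5 rose by 0.66 ± 0.04 with ATPgs. Dusp2, another phosphatase of MAP kinases, fell by 0.91 ± 0.04 with ATPgs, and Atf3, a stress-induced transcription factor, fell by 0.63 ± 0.04 with adenosine and by 1.02 ± 0.17 with adenosine and inhibitor. With the inhibitor 1 of 25 was lower and 0 higher in edgeR, and without R library 3, 8 were lower. With all libraries, 6 were lower and 0 higher at an unadjusted p under 0.05. DESeq2 called 4 lower and 0 higher, and limma-voom 1 and 0. In the test of the difference, the ATPgs change was higher than the adenosine change for 16 of 25 and lower for 2. Over all genes tested there, 8.13% were higher and 9.12% lower. The counts were 19 and 2 at an unadjusted p under 0.05, 17 and 2 in DESeq2 and 13 and 2 in limma-voom. Ligand and set cannot be told apart in this test.

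Transcription factors that act upstream of the members moved both ways, with 5 of 19 higher and 4 lower with ATPgs, and 5 of 18 higher and 8 lower with adenosine. Crem, a gene that cyclic AMP induces, rose by 1.53 ± 0.04 and by 1.24 ± 0.03. Nfatc1, an NFAT factor that the T cell receptor activates, fell by 0.51 ± 0.05 and by 0.28 ± 0.02, and Rel, an NF-κB subunit, fell by 0.58 ± 0.02 with adenosine. With inhibitor 0 of 18 passed in edgeR, 0 at an unadjusted p under 0.05, 0 in DESeq2 and 0 in limma-voom, and without R library 3 it was 1 higher and 1 lower of 19. The ATPgs counts were 7 higher and 8 lower without WTATPgs libraries 1 and 2.

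Reported targets of EGR2 and EGR3 moved both ways, 7 of 20 higher and 6 lower with ATPgs, and 8 and 8 with adenosine, as did genes that depend on NR4A, 6 of 17 higher and 2 lower, and 7 and 5. The counts do not consider whether a factor raises or lowers each gene. They therefore cannot show whether the listed genes followed EGR or NR4A. The ATPgs counts of the NR4A list were 10 and 2 of 18 without WTATPgs library 3, and 9 and 5 without libraries 1 and 2, and those of the EGR list 9 and 7, and 7 and 9. Il2, which encodes the growth factor interleukin 2, changed by −2.73 ± 0.04 with ATPgs, −2.87 ± 0.06 with adenosine and −2.70 ± 0.24 with adenosine and inhibitor, where no member passed. Ikzf2 (HELIOS), which is on both lists, rose by 1.05 ± 0.04 and 0.83 ± 0.02 with ATPgs and adenosine. Irf4, a factor for effector differentiation, fell by 0.74 ± 0.03 and 0.93 ± 0.02. Of 16 other surface genes of early activation, 6 rose and 6 fell with ATPgs, and 8 rose and 7 fell with adenosine. The ATPgs counts were 9 and 6 without WTATPgs library 3. Icos, a costimulatory receptor, rose by 1.498 ± 0.037 with ATPgs, and Cd44, an adhesion receptor, fell by 0.51 ± 0.04 with ATPgs and by 0.60 ± 0.02 with adenosine. With inhibitor the EGR targets had 0 higher and 2 lower in edgeR, the NR4A list 2 and 1 of 16, and the surface genes 1 and 1. At an unadjusted p under 0.05 the EGR targets had 1 higher and 3 lower, the NR4A list 6 and 1, and the surface genes 4 and 3. In DESeq2 the counts were 1 and 2, 4 and 1, and 4 and 1, and in limma-voom 0 and 2, 2 and 1, and 1 and 1. Without R library 3 the edgeR counts were 2 higher and 5 lower for the EGR targets, 4 and 1 for the NR4A list and 5 and 3 for the surface genes. Leaving out R library 1 or any RA library gave 0 higher and 1 lower for the NR4A list.

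**Figure D5:**
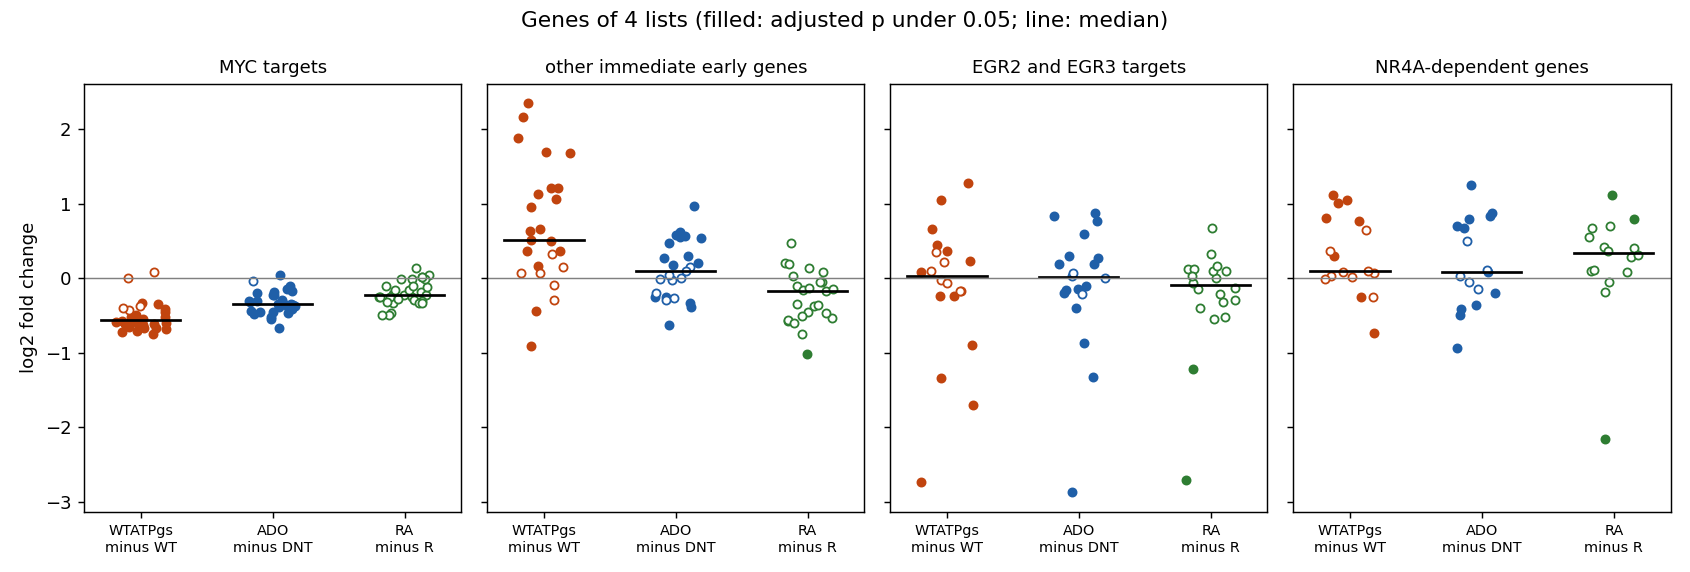
Log2 fold change of the genes of 4 lists in the 3 ligand comparisons; each point is a gene, filled where its adjusted p is under 0.05, and the line is the list's median. The MYC targets lie below 0 with ATPgs and adenosine with few exceptions, while the targets of EGR2 and EGR3 and the genes that depend on NR4A lie on both sides of 0.

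Genes whose pattern was most like that of a member were ranked by Pearson's r over the 18 libraries, on log2 CPM relative to the mean of the groups without added ligand in the same set, among 8637 genes. The libraries share sets, treatments and depth, so r is a description. For Nr4a1 they were Mgrn1 (r = 0.944), Tent5a (0.939) and Psap (0.938), and for Nr4a3 Fryl (0.987), Scd2 (0.973) and Dnm2 (0.972). For Egr2 they were Plk2 (0.983), Nop2 (0.982) and Lad1 (0.979). For Myc they were Gphn (0.976), Rps6ka1 (0.962) and Per2 (0.959), and for Cd69 Ivns1abp (0.97), Pdp1 (0.93) and Utp23 (0.925). No member was among these genes.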

How the data were processed

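The authors deposited 3 tables of raw counts, each with the genes of 6 libraries under Ensembl identifiers. They aligned reads with HISAT2 2.1.0 to GRCm38, per the submitters' processing notes. Not given in the sources used here are how reads were counted and whether strand was used. The GENCODE M21 annotation named 99.7%, 99.8% and 99.8% of the identifiers. The members and lists were chosen with earlier results of these data known.

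Groups came from the labels. The test was the two-sided quasi-likelihood F test of edgeR 4.0.16 (R 4.3.3), with robust dispersions, TMM scaling and the filterByExpr filter. P-values were adjusted by Benjamini-Hochberg over every gene tested, with a threshold of 0.05. A ligand was tested in the 6 libraries of its set, and a difference of effects in 12. The SE is the log2 fold change over the square root of F. CPM used the TMM factors of each set. Likeness of patterns used log2 CPM with an offset of 0.5, for genes with at least 5 CPM in a group of every set. Named are all members, up to 2 rising and 2 falling genes of smallest adjusted p per list and ligand comparison (some of which are printed), and the 3 most like genes. The fits were tested on simulated data. Alternatives were DESeq2 1.42.0, limma-voom (limma 3.58.1), other scalings and filters, all 18 libraries in a single fit, a replicate block and leaving out each library. No library was left out of the main tests. Replicates differed by more than sampling noise in every pair. Figures were drawn with matplotlib 3.10.9 in Python 3.11.15.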

Additional observations from a re-analysis of the deposited data

Results flagged for a closer look

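In the test of the ATPgs change against the adenosine change, Nr4a2 differed by 1.07 on the log2 scale, being higher in WTATPgs than in WT in all 3 libraries and lower in ADO than in DNT in all 3. Egr1 differed by 0.69 in the same test, with every WTATPgs library above every WT library and every ADO library below every DNT library. Such separation was common, since 51.3% of genes tested did not overlap with ATPgs and 55.7% with adenosine. Egr1 was not called with ATPgs alone (adjusted p = 0.0838 in edgeR), and its call for the difference was lost in 16 of 22 alternatives. Ligand and set cannot be told apart in this test.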

How the results depend on the processing

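Members called with ATPgs (6 with all libraries) ranged from 4 to 8 when single libraries were left out. Fitting all 18 libraries together gave 3299 genes with ATPgs in place of 5612, 2309 with adenosine in place of 7281 and 4 members in place of 7. It gave 1778 genes with adenosine and inhibitor in place of 147 and 6 members in place of 0, 1009 for the inhibitor difference in place of 605, and 302 for the ligand difference in place of 2724 with 1 member in place of 2. Scaling to library size only gave 73 genes with adenosine and inhibitor, 240 for the inhibitor difference and 1 member for the ligand difference. Without a filter on low counts there were 485 genes and 6 members with adenosine and inhibitor, 1 member for the inhibitor difference and 1 for the ligand difference. DESeq2 gave 533 genes and 4 members with adenosine and inhibitor and 1388 genes and 1 member for the inhibitor difference, and limma-voom gave 1 member for the ligand difference. Leaving out single libraries gave 3885 to 8381 genes with ATPgs, 6687 to 6905 with adenosine (7 members each), 36 to 1719 with adenosine and inhibitor (0 to 7 members), 280 to 3050 for the inhibitor difference (0 to 5 members) and 1943 to 5367 for the ligand difference (1 to 6 members). Of the genes called with ATPgs, 2678 were higher and 2934 lower, and with scaling to library size only 3226 and 2331, where the called members kept 3 higher and 3 lower. The causes were not tested.

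Replicate numbers did not pair the libraries (correlations of deviations from −0.429 to 0.175). The replicate block gave 160 genes for the inhibitor difference and 1 member for the ligand difference, and ended the Nr4a3 call with ATPgs (adjusted p = 0.051).

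Directions turned for some values. With adenosine and inhibitor, Nr4a1 ranged from −0.0495 (without R library 3) to 0.264 over single libraries left out. In the inhibitor difference Myc ranged from −0.48 to 0.0022 (without R library 2), and Cd69 from −0.376 to 0.0182 (without R library 3). In the ligand difference Nr4a1 ranged from −0.0439 to 0.183 (negative without WTATPgs library 1 or 2), and Cd69 from −0.0062 (without WTATPgs library 3) to 0.0551. Without WTATPgs libraries 1 and 2, added after seeing the data, Egr3 was at 0.0525 with ATPgs, and in the ligand difference, with 5 members called, Nr4a1 was at −0.29, Nr4a3 at −0.068, Egr3 at 0.10 and Myc at 0.15. Egr2 fell in every alternative with ATPgs (−1.18 to −1.09) and with adenosine (−1.07 to −0.99). Depth was alike in all sets, and set 3 had the widest spread between libraries.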
